A study of Drosophila melanogaster with 8 samples.

Results

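Tps1, Glyp and Glys are the enzyme genes at the centre of sugar storage in Drosophila melanogaster. They were taken by gene symbol from the probe table of a spotted cDNA array, and all 3 were found among its 6793 named genes, on 8 of its 27648 spots. Tps1 had 4 spots in 2 neighbouring pairs, and Glyp and Glys had 1 pair of neighbouring spots each. On 4 arrays, RNA of Rover larvae in the third instar that carried DGCalpha1[3] was hybridised with RNA of Rover larvae without it, and on the other 4 arrays RNA of sitter larvae carrying DGCalpha1[3] was hybridised with RNA of sitter larvae without it. DGCalpha1[3] is a mutant allele of Gycalpha99B, which encodes the alpha subunit of soluble guanylyl cyclase. All larvae were untreated, and the labels name no tissue, no age beyond the instar and no driver or transgene. Rover and sitter are natural variants of larval foraging behaviour. The labels do not say whether the arrays of a background came from separate larvae, so each p-value measures the spread between arrays, which may be technical.

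Trehalose, a sugar of 2 linked glucose units, is the main circulating sugar of insects. The fat body makes it, and other tissues cleave it to glucose. Tps1 encodes trehalose 6-phosphate synthase, which joins UDP-glucose and glucose 6-phosphate. Glys encodes glycogen synthase, which extends glycogen chains from UDP-glucose. Glyp encodes glycogen phosphorylase, which releases glucose 1-phosphate from glycogen and is switched on by phosphorylase kinase. In larvae, glycogen is stored in the fat body and in muscle, among other tissues.

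Each value is a log2 ratio of the 2 channels of an array, made by the authors, and the base of the logarithm is taken to be 2. The sources used here do not say which channel is the numerator, so a positive or negative ratio is not read as more or less RNA in mutant larvae. A difference written as Rover minus sitter compares the ratio of one background with that of the other. Array medians were -0.47 to -0.24 for the Rover arrays and -0.28 to -0.10 for the sitter arrays, so values are also given after each array was centred on its median. The median of all named genes was 0.04 after centring and -0.34 before it in Rover, 0.02 and -0.15 in sitter, and 0.03 and -0.17 in Rover minus sitter. The detector gain of the Cy5 channel was 64 on 5 arrays and 67 or 68 on the other 3 (Rover 1, sitter 1 and sitter 4), and the 5th percentile of the ratios was -1.80 to -1.51 at the lower gain and -1.06 to -0.81 at the higher. Gycalpha99B itself had ratios of both signs, between -0.96 and 0.45 on Rover arrays and between -0.52 and 0.18 on sitter arrays. RNA came from larvae, with many cell types together, so fewer cells of a type and less RNA per cell cannot be told apart in any ratio.

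Glyp had a negative ratio on all 4 sitter arrays. In Rover its log2 ratios were -0.54, -0.04, -0.58 and 0.17 on arrays 1 to 4, and in sitter they were -0.50, -0.67, -0.93 and -1.19. The values of Rover 1 and Rover 3 lay within the sitter range, while Rover 2 and Rover 4 lay above it. Rover averaged -0.25 ± 0.37 and sitter -0.82 ± 0.30 (SD, n = 4 each). In limma, fitted over 19325 features with Benjamini-Hochberg adjustment, the Rover mean did not differ from 0 (adjusted p = 0.253) and the sitter mean did (adjusted p = 0.0170). Across the features tested in sitter, 23% were called with a negative ratio, so such a call is frequent on these arrays. Glyp lay far down among the named genes in sitter, where 7.48% of them had a ratio as low or lower. In Rover 56.9% did. The sitter call was lost without sitter replicate 2 (mean -0.87, adjusted p = 0.0765) and without sitter replicate 3 (mean -0.79, adjusted p = 0.0860), where only 24 and 22 features were called in all.

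After centring, Glyp kept the same side of the threshold in both backgrounds. Its centred ratios were -0.31, 0.31, -0.12 and 0.63 in Rover and -0.40, -0.48, -0.65 and -1.06 in sitter. The 2 backgrounds then did not overlap, which held with Rover the higher for 6.04% of all features. Centred, Rover averaged 0.13 ± 0.42 and sitter -0.65 ± 0.29 (SD, n = 4 each). The limma adjusted p was 0.532 for the Rover mean, whose sign turned with the centring, and 0.0404 for the sitter mean, where 11.5% of features were called negative.

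**Figure D1:**
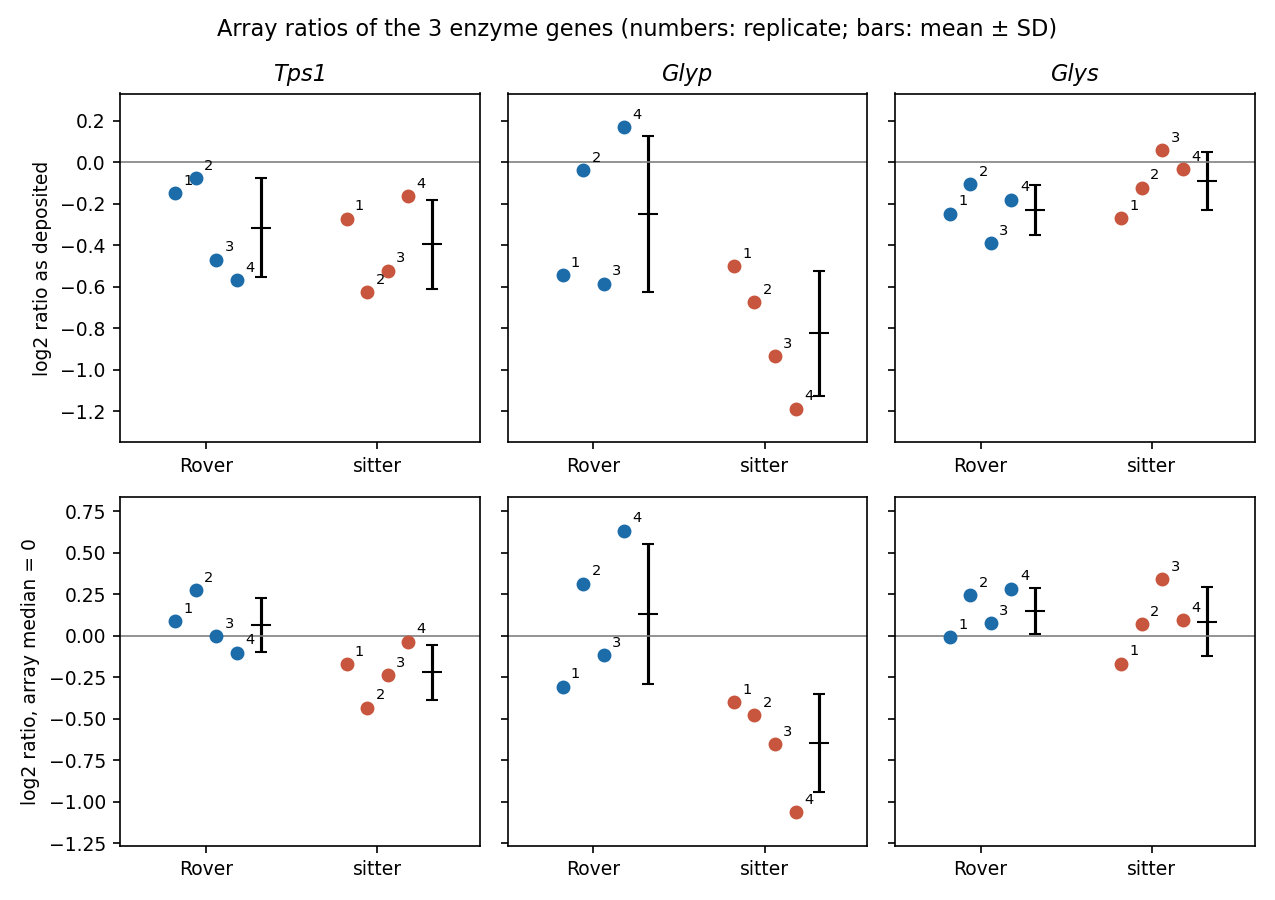
Log2 ratio of Tps1, Glyp and Glys on each array (dots, numbered by replicate) with Rover left and sitter right; the upper row shows ratios as deposited, the lower row ratios with the array median set to 0, and bars give the mean ± SD of 4 arrays. Glyp separated the backgrounds after centring, from -0.31 to 0.63 in Rover against -1.06 to -0.40 in sitter, while Tps1 and Glys overlapped in both rows.

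The difference in Glyp between the backgrounds did not pass the test across all features. The ratio was higher in Rover than in sitter by 0.57 ± 0.23 (SE; 95% interval 0.05 to 1.10), with an unadjusted limma p of 0.0342 and an adjusted p of 0.498. limma called 0.0466% of all features in this comparison, and 9.4% had an unadjusted p under 0.05. After centring the difference was 0.78 (95% interval 0.24 to 1.32, adjusted p = 0.410), with 0.0776% of features called. An exact two-sided permutation of the background labels gave p = 0.0857 for the ratios as deposited and 0.0286, the smallest that 4 against 4 arrays allow, for the centred ratios. That smallest value follows from the lack of overlap given above, which held in either direction for 7.58% of all features after centring. Among the named genes, 8.23% had a difference of larger size as deposited and 2.15% after centring. Both Glyp spots gave a similar difference, 0.60 for the first and 0.55 for the second.

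By the labels the arrays came from 2 lots, if the lot names of Rover 1 and sitter 1, which are spelled slightly differently, mean the same lot. These 2 arrays, taken as lot A, were hybridised for 15.75 hours and the 6 arrays of lot B for 17.75 hours, so lot and hybridisation time cannot be told apart. In lot A, with 1 array a background, the Glyp difference Rover minus sitter was -0.04 as deposited and 0.09 after centring. In lot B, with 3 arrays a background, it was 0.78 as deposited (limma adjusted p = 0.418) and 1.01 after centring. The difference was 0.65 among arrays scanned at a Cy5 gain of 64 (3 Rover, 2 sitter) and 0.30 among those at 67 or 68 (1 Rover, 2 sitter). With 1 array in a cell of either split, a difference between lots or gains was not tested.

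Fat body transcripts moved in the same direction as Glyp between the backgrounds. Of 8 fat body genes listed, 4 were measured, and they averaged -0.18, -0.06, 1.55 and 0.97 in Rover and -0.22, -0.74, -1.18 and -2.33 in sitter. All 4 had a higher ratio in Rover, with differences of 0.48 to 2.94, where 24.7% of all named genes had a positive difference. With an unadjusted limma p under 0.05, 3 were positive as deposited and 4 after centring, against 1.59% and 6.54% of all features. None passed the test across all features. Fbp2, a fat body protein gene, differed by 2.94 (limma adjusted p = 0.458), and apolpp, which encodes the lipid carrier of the haemolymph, by 0.48 (adjusted p = 0.449). On sitter 4 both Glyp and the fat body mean were at their lowest. On Rover 3, where the fat body mean was highest, Glyp was at its lowest Rover value. The larval serum protein genes Lsp1alpha, Lsp1beta and Lsp1gamma are not analysed here. Of 10 muscle genes listed, 5 were measured, with means of -0.23 to 0.15 on the Rover arrays and -0.34 to 0.07 on the sitter arrays. Mlc2, a myosin light chain gene, differed by 0.29 (adjusted p = 0.568) and the actin gene Act87E by -0.14 (adjusted p = 0.771). Of 7 salivary glue and late puff genes listed, 2 were measured, with means of -1.97 to 2.09 on the Rover arrays and -2.67 to 0.24 on the sitter arrays. Sgs4, which encodes a glue protein, differed by -1.86 (adjusted p = 0.462), and the late puff gene Eig71Ee by 3.42 (adjusted p = 0.522). Both were uneven over the Rover arrays 1 to 4, with -3.15, -3.71, -0.83 and -0.56 for Sgs4 and -0.38, -0.24, 3.63 and 4.75 for Eig71Ee. Eig71Ee also had -5.03 on sitter 3. The 2 spot pairs of Sgs4 had a mean gap of -1.47. The part of fat body, muscle or developmental stage in the Glyp ratios was not tested.

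**Figure D2:**
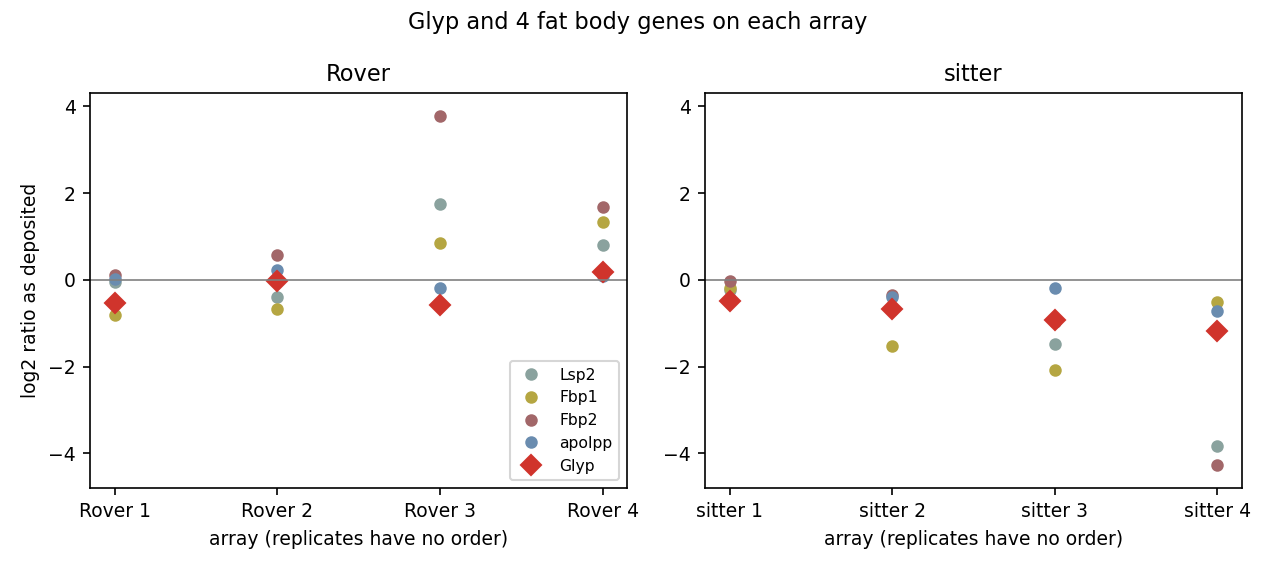
Log2 ratio as deposited of Glyp (red diamonds) and of the fat body genes Lsp2, Fbp1, Fbp2 and apolpp (dots) on each array, with Rover in the left panel and sitter in the right. Glyp stayed between -1.19 and 0.17, while Fbp2 reached 3.78 on Rover 3 and -4.27 on sitter 4.

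Glys varied least of the enzyme genes as deposited and lay near the array medians. Its log2 ratios were -0.25, -0.10, -0.39 and -0.18 in Rover and -0.27, -0.12, 0.06 and -0.03 in sitter. The backgrounds overlapped. Rover averaged -0.23 ± 0.12 and sitter -0.09 ± 0.14 (SD, n = 4 each), and neither passed in limma (adjusted p = 0.0934 for Rover and 0.582 for sitter). After centring, Rover averaged 0.15 ± 0.14 and sitter 0.08 ± 0.21 (SD, n = 4 each), so the sign turned in both backgrounds. Rover minus sitter was -0.14 as deposited (95% interval -0.46 to 0.18, adjusted p = 0.749) and 0.07 after centring (95% interval -0.30 to 0.43, adjusted p = 0.932). These intervals leave room for differences of either sign. The pooled SD within the backgrounds was 0.13, and 91.5% of named genes varied more.

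Averaged over its 4 spots, Tps1 was negative on all 8 arrays as deposited. Only 22.4% to 36.3% of the spots on an array had a positive ratio. The share of all features negative on every array is not given here. The ratios were -0.15, -0.08, -0.47 and -0.57 in Rover, with a mean of -0.31 ± 0.24 (SD, n = 4). In sitter they were -0.27, -0.63, -0.52 and -0.16, with a mean of -0.39 ± 0.22 (SD, n = 4). Neither mean passed in limma (adjusted p = 0.0700 for Rover and 0.0514 for sitter). The sitter mean passed with lot, so assigned, as a block (adjusted p = 0.0449). With that block 5801 of 19325 features were called in sitter, against 4583 without it, so such a call is frequent there. After centring, Rover averaged 0.065 ± 0.16 (SD, n = 4; limma adjusted p = 0.635), with 2 arrays positive and 2 negative. Sitter averaged -0.22 ± 0.17 (SD, n = 4; adjusted p = 0.175), with 4 arrays negative. Rover minus sitter was 0.08 as deposited (95% interval -0.33 to 0.49, adjusted p = 0.893), and 0.28 after centring (95% interval -0.07 to 0.64, adjusted p = 0.628).

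That average joins 2 spot pairs that differed from each other on every array. The first pair had ratios of 0.12, 0.68, 0.57 and 0.15 in Rover, where it averaged 0.38 ± 0.29 (SD, n = 4). In sitter it had -0.12, 0.13, -0.14 and 0.12 and averaged -0.0011 ± 0.15 (SD, n = 4). The second pair had -0.41, -0.84, -1.50 and -1.29 in Rover, with a mean of -1.01 ± 0.49 (SD, n = 4). In sitter it had -0.42, -1.38, -0.91 and -0.44, with a mean of -0.79 ± 0.45 (SD, n = 4). The second pair lay below the first on 8 of 8 arrays, by -0.30 on sitter 1 to -2.07 on Rover 3 and by -1.09 ± 0.63 (SD, n = 8) on average. This gap lies within an array, so centring does not change it. Spots within a pair lay closer together, with a median distance of 0.14 in the first pair and 0.10 in the second and a largest distance of 0.49 on sitter 2 and 0.64 on Rover 2. Of 627 genes measured by 2 such pairs, Tps1 had the 16th largest mean gap, where the median gene had 0.23 and 22.6% kept 1 sign on all arrays. The probe table gives no transcript accession for the first Tps1 spot it lists, and which part of the transcript each pair reads is not known here.

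The pairs also gave opposite calls when each pair of neighbouring spots on the array was fitted as a feature, 13824 in all, a setting chosen after the data were seen. In Rover the first pair was positive (limma adjusted p = 0.0284) and the second negative (adjusted p = 0.00354), where 1.82% and 46.3% of pairs were called in those directions. In sitter the first pair was not called (adjusted p = 0.997) and the second was negative (adjusted p = 0.0229), as were 27.2% of pairs, while 0.969% were positive. After centring the Rover calls held at 0.76 (adjusted p = 0.00482) and -0.63 (adjusted p = 0.0159), and the sitter call of the second pair at -0.61 (adjusted p = 0.0374). The first pair again had no call in sitter. Centred, 25.6% of pairs were called positive and 28.7% negative in Rover, and 17.4% negative in sitter. Rover minus sitter was 0.38 for the first pair (95% interval -0.01 to 0.77, adjusted p = 0.482) and -0.22 for the second (95% interval -0.88 to 0.43, adjusted p = 0.771), where 0.0796% of pairs were called. After centring the first pair did not overlap between backgrounds, at 0.35 to 1.03 in Rover and -0.02 to 0.32 in sitter, as was so with Rover the higher for 6.77% of pairs. Its centred difference of 0.59 did not pass across all pairs (limma adjusted p = 0.360), of which 0.188% were called.

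The second Tps1 pair sorted the arrays by detector gain. It lay between -1.50 and -0.84 on the 5 arrays at the lower Cy5 gain and between -0.44 and -0.41 on the 3 arrays at the higher gain, without overlap. Of all neighbouring pairs, 23.7% showed such a separation with the lower gain below. After centring they still did not overlap, at -1.19 to -0.48 for the lower gain and -0.32 to -0.18 for the higher, as was so for 13.2% of pairs. With the arrays centred and scaled to a common spread the ranges overlapped, at -1.17 to -0.36 for the lower gain and -0.54 to -0.20 for the higher, where 4.6% of all pairs still separated. The first pair did not sort that way, with -0.14 to 0.68 at the lower gain and -0.12 to 0.12 at the higher. Within the lower gain, the second pair averaged -1.21 in Rover and -1.14 in sitter, and within the higher gain -0.41 and -0.43, so the backgrounds differed by -0.07 and 0.02. The first pair differed between backgrounds by 0.47 at the lower gain and by 0.12 at the higher. The part of detector gain in the Tps1 ratios was not tested.

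**Figure D3:**
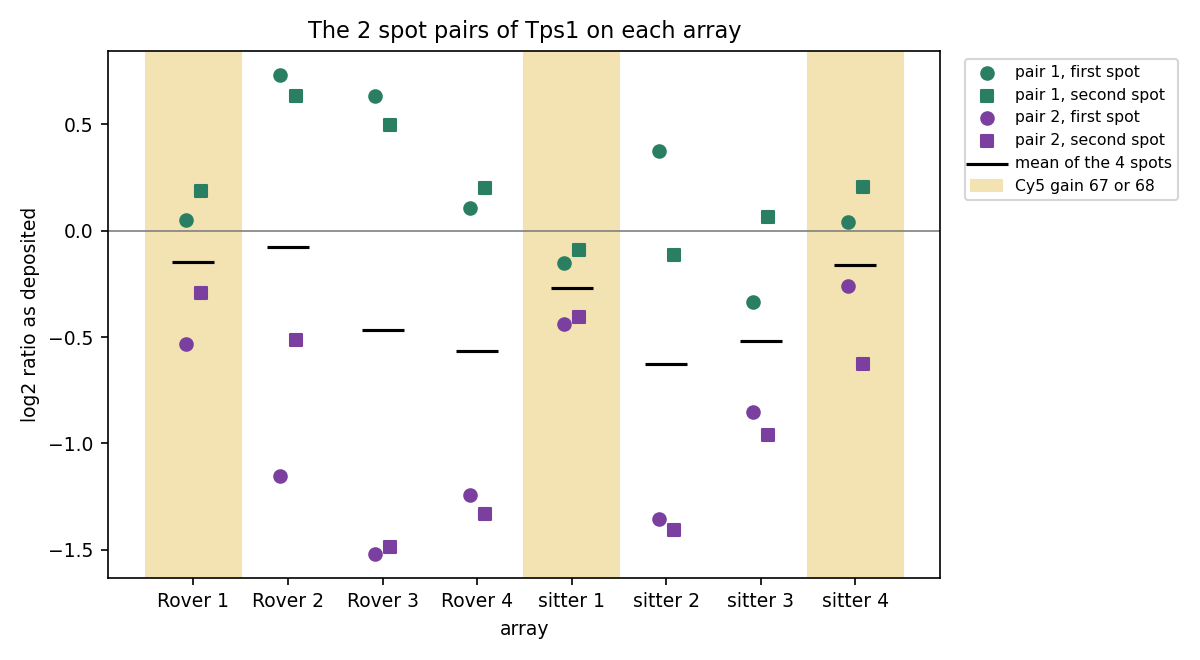
Log2 ratio as deposited of the 4 Tps1 spots on each array, with the first pair in green, the second in purple and their mean as a black bar; shaded arrays were scanned at a Cy5 gain of 67 or 68. The second pair lay below the first on all 8 arrays, and its pair means were -0.44 to -0.41 on the shaded arrays and -1.50 to -0.84 on the others.

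**Figure D4:**
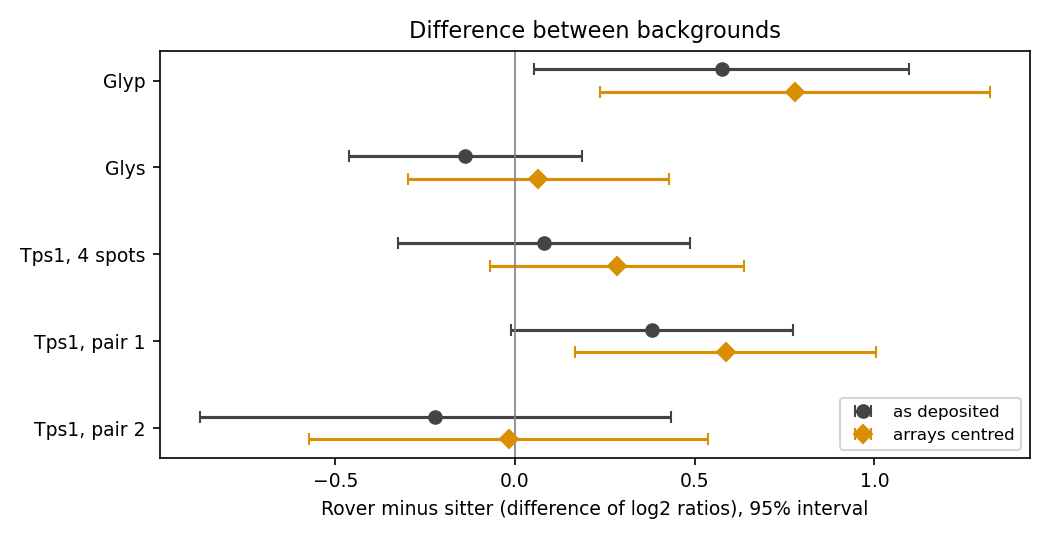
Difference in log2 ratio, Rover minus sitter, with the 95% interval from limma, as deposited (dark grey circles) and after centring (orange diamonds). The Glyp intervals, 0.05 to 1.10 and 0.24 to 1.32, exclude 0, as does that of the first Tps1 pair after centring, but none of these differences passed after adjustment across all features.

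The 3 enzyme genes did not follow 1 pattern over the arrays. Over the 8 centred arrays, the Pearson correlation was 0.38 between Glyp and Tps1, 0.33 between Glyp and Glys and 0.09 between Tps1 and Glys. Within the 4 arrays of each background the values differed from these. Glyp and Tps1 had -0.19 in Rover and -0.68 in sitter, Glyp and Glys 0.98 in Rover and -0.38 in sitter, and Tps1 and Glys -0.02 in Rover and -0.13 in sitter. The values over 8 arrays also take in the difference between the background means. Ranked by the correlation over 8 arrays among 6792 genes, Tps1 came 1844th and Glys 2031st for Glyp. Closest to Glyp were the tubulin tyrosine ligase-like gene TTLL4B, CG13594 and the serine protease gene Jon66Cii, with correlations of 0.98 each. CG12934, lok and CG3735 came closest to Glys (0.95 each), and Pex3, SMSr and CG4259 to the 4-spot average of Tps1 (0.96, 0.95 and 0.94). With 8 arrays that share probes, print lots and scanner settings, such correlations are a description only. The pooled SD of Glyp within backgrounds was 0.34, which 38.3% of named genes exceeded. For the 4-spot average of Tps1 it was 0.23, which 67% exceeded. All Tps1 values in this paragraph are of that average. Over the 8 centred arrays its first and second spot pairs correlated at -0.37, where the median gene with 2 such pairs had 0.30. The second pair alone had an SD of 0.49 in Rover and 0.45 in sitter, and the first 0.29 and 0.15.

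None of the other genes of sugar storage and use passed in Rover minus sitter. Of 48 genes in 6 lists beside the enzymes above, 29 were measured, with 0 called by limma and 1 in each direction at an unadjusted p under 0.05. After centring there were again 0 calls, with 6 positive and 0 negative at an unadjusted p under 0.05. The background of unadjusted calls was 9.4% of features as deposited and 8.89% after centring, and 1.59% and 6.54% with a positive difference. The median difference of the 29 genes was -0.03 as deposited and 0.18 after centring, against -0.15 and 0.05 for all features.

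Among the other trehalose genes, 6 of 6 measured had a lower ratio in Rover than in sitter as deposited, from -0.42 to -0.05, and 2 of 6 after centring. As deposited, the difference was positive for 24.7% of all named genes and their median was -0.17, so most genes ran the same way. CG6262, a predicted trehalase gene, differed by -0.42 (limma adjusted p = 0.471), and CG5171, a predicted trehalose phosphatase gene, by -0.31 (adjusted p = 0.682). Treh, which encodes the enzyme that cleaves trehalose, stood at -0.23 in Rover and -0.03 in sitter and is named after its values were seen. Its Rover mean rested on Rover 1, at -0.58, where Rover 2 to 4 had -0.05, -0.15 and -0.13. After centring, Treh averaged 0.15 in Rover and 0.14 in sitter. Of the genes beside Glys in glycogen synthesis, UGP, which makes UDP-glucose, differed by -0.10 (adjusted p = 0.910). Gyg, for the glycogenin that primes glycogen chains, was negative in both backgrounds, at -0.73 in Rover and -0.74 in sitter (adjusted p = 0.00476 and 0.0175), where 45% and 23% of all features were called negative. Gyg is named after its values were seen. Its Rover call was lost after centring (adjusted p = 0.0661) and its sitter call was kept (adjusted p = 0.0372), where 11.5% of all features were called negative.

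Beside Glyp in glycogen breakdown, PhKgamma, the catalytic subunit of phosphorylase kinase, had a lower ratio in Rover, by -0.73 (limma adjusted p = 0.634). That mean rested on Rover 3, at -2.81, where the other Rover arrays had -0.72, -0.54 and -0.44 and sitter had -0.22 to -0.54. The phosphorylase kinase regulatory subunit gene CG8475, also named after its values were seen, was negative at -0.72 in Rover and -0.49 in sitter (adjusted p = 0.00318 and 0.0297). There 45% and 23% of all features were called negative. After centring CG8475 was called negative in Rover (adjusted p = 0.0332), as were 25% of all features, and was not called in sitter (adjusted p = 0.0795). None of the 4 genes beside Glyp was called in the difference, which ran from -0.73 to 0.26.

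Of the 5 measured genes at the entry of glucose 6-phosphate and in gluconeogenesis, 3 had a positive difference as deposited and 4 after centring. Of all named genes 24.7% and 54.4% did. With an unadjusted limma p under 0.05, 1 was positive as deposited and 3 after centring, against 1.59% and 6.54% of all features, and 0 were called. Pepck2, for a phosphoenolpyruvate carboxykinase, had a mean of 0.53 in Rover against -0.49 in sitter, and the difference of 1.03 ± 0.30 (SE) did not pass (limma adjusted p = 0.381). Pgi, for glucose 6-phosphate isomerase, differed by 0.36 (adjusted p = 0.581). All 7 measured genes of glycolysis from phosphofructokinase to enolase had a higher ratio in Rover. The differences were 0.11 to 0.41 as deposited and 0.31 to 0.61 after centring, where 24.7% and 54.4% of all named genes had a positive difference. The enolase gene Eno differed by 0.41 (adjusted p = 0.585) and Pgk, for phosphoglycerate kinase, by 0.27 (adjusted p = 0.653). In the list of sugar hormones and insulin signalling, the transcription factor gene foxo differed by 0.30 (adjusted p = 0.576). AkhR, the receptor of adipokinetic hormone, which mobilises stored sugar, differed by -0.71 (adjusted p = 0.677), with -2.91 on Rover 2 and -0.46 to -0.10 on the other 7 arrays.

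**Figure D5:**
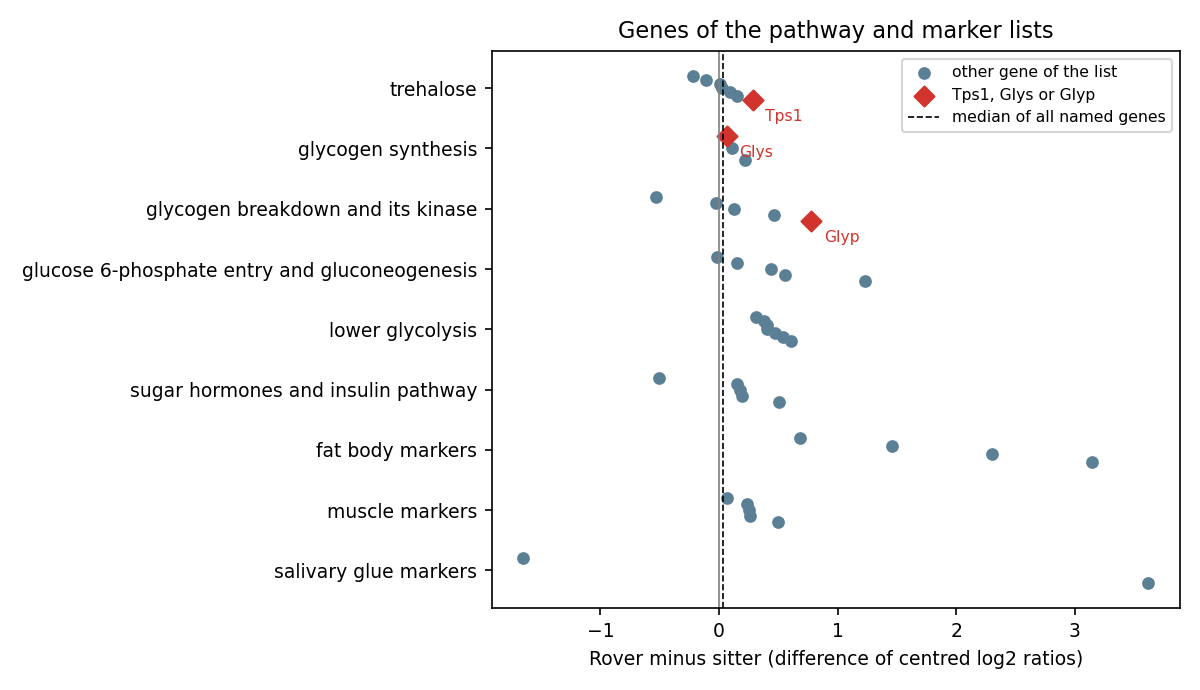
Difference in centred log2 ratio, Rover minus sitter, for each measured gene of the pathway and marker lists (1 dot a gene), with Tps1, Glys and Glyp as red diamonds and the median of all named genes (0.03) dashed. Glyp lay at 0.78, above the 4 other genes of its list. The genes of the list marked lower glycolysis, measured from phosphofructokinase to enolase, lay between 0.31 and 0.61.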

How the data were processed

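RNA of 8 larval hybridisations, 4 in Rover and 4 in sitter, was read on 2-colour spotted arrays. Per the labels, 80 µg of RNA went into each labelling, slides were scanned on a ScanArray 4000, and spots were quantified in QuantArray version 3 with no background subtraction. Per the labels, the authors derived the deposited log2 ratio of each spot from normalised data by a method not given in the sources used here, and base 2 is an assumption. No intensities were used here, so dim spots could not be filtered, and the number of arrays limits the precision.

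Spots of a gene were averaged per array and all other spots kept single, giving 19325 features. Means and Rover minus sitter were fitted in limma 3.58.1 (R 4.3.3; 6 residual degrees of freedom), tested on simulated data, and called at a Benjamini-Hochberg adjusted p under 0.05. Single values also had an exact permutation test. Gene IDs of 14894 among the 15116 named spots were found in the Release 6 RefSeq table. The genes, lists and alternatives were chosen with earlier results of these data known. By rule, the text names the 3 enzyme genes, their 3 most correlated genes, and from each list the genes called in the difference or the 2 of smallest p; Treh, Gyg and CG8475 are named beyond it. Same-numbered replicates deviated together at correlations of 0.31, 0.12, 0.06 and 0.06, so numbers were not taken as pairs.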

Additional observations from a re-analysis of the deposited data

How the results depend on the processing

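Some signs turned with centring. Centred, the Rover means were 0.065 for Tps1, 0.13 for Glyp and 0.15 for Glys, the sitter mean of Glys was 0.084, and its Rover minus sitter was 0.065; with arrays also scaled these values were 0.056, 0.075, 0.11, 0.056 and 0.055. None of these was called, and the shift of all ratios by centring is the cause. The sitter means of Tps1 and Glyp stayed negative, at -0.22 and -0.65 centred and -0.24 and -0.83 with arrays also scaled. For Tps1 as single spots, spots 1 and 2 had Rover means of 0.38 each (limma adjusted p = 0.0861 and 0.0283) and spot 2 a sitter mean of 0.017. Spots 3 and 4 had -1.11 and -0.91 in Rover (adjusted p = 0.00367 and 0.0113), -0.73 and -0.85 in sitter (0.0388 and 0.0345), and -0.39 and -0.057 in Rover minus sitter. As neighbouring pairs, the first pair had 0.38 in Rover, and the second -1.01 in Rover, -0.79 in sitter and -0.22 in Rover minus sitter. Of all neighbouring pairs, 1.82% were called positive and 46.3% negative in Rover, and 27.2% negative in sitter. The share of all single spots called is not given here. When print lot was a block, the sitter mean of Tps1, -0.39, was called, as were 5801 of 19325 features in sitter. Without the block 4583 were called in sitter. The cause of the Tps1 call was not tested.

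With each array left out in turn, Rover minus sitter ran from 0.00046 to 0.16 for Tps1, 0.44 to 0.69 for Glyp and -0.20 to -0.09 for Glys, with 0 calls. Rover means ran from -0.39 to -0.23, -0.39 to -0.14 and -0.27 to -0.18, and sitter means from -0.47 to -0.32, -0.93 to -0.70 and -0.14 to -0.03, in the same gene order; the Glyp sitter mean was called in 6 of 8. With a replicate block the differences stayed at 0.08, 0.57 and -0.14 (adjusted p = 0.882, 0.405 and 0.725) and 7 features were called in place of 9; for 1 of 4 numbers, each of the 2 arrays correlated best with the other. Features called in the difference numbered 15 centred and 2 scaled. In sitter 4583 were called, 2659 after centring, 6726 after scaling too, 24 without sitter replicate 2 and 22 without sitter replicate 3. In Rover 9019 were called and 6011 after scaling. Rover calls were 3.6% positive as deposited and 47.6% centred, sitter calls 3.1% and 16.5%, and calls of the difference 44.4% and 80%. Robust moderation and each background alone changed no sign and no call of the enzyme genes. The Cy5 gain as a block was run for Rover minus sitter only, with 0.16 for Tps1, 0.53 for Glyp and -0.16 for Glys and 0 calls.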
